A study of Drosophila melanogaster with 4 samples.

Results

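The genes described are those for eukaryotic translation initiation factors, the proteins that bring the ribosome and the first transfer RNA to the start codon of a messenger RNA. They were taken as the features of the count files whose FlyBase symbol begins with eIF and a digit, which gave 42 genes of 15222 features. The reference table of symbols held 44 such names, and eIF2gamma and eIF4E3 were not analysed here because their identifiers matched no feature in the files. Total RNA had been sequenced from wing imaginal discs of Drosophila melanogaster, the larval epithelia that form the adult wing and notum. Discs had been dissected by hand from wandering third-instar larvae of strain yw, 2 libraries from larvae with genotype wtsP2 and 2 from wild-type larvae. The wtsP2 allele affects warts (wts), which encodes the kinase of the Hippo growth control pathway that restrains the coactivator Yorkie. At issue in the comparison is how transcript levels differ when warts is mutant. The labels give no age in hours and no number of discs. Nothing in them states that replicate libraries were made from separate cultures or animals, so that p-values measure only the spread between these libraries, which may be technical. Because whole discs were sequenced, fewer cells of a type and less RNA per cell cannot be told apart.

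Initiation proceeds through a series of complexes. The factors eIF1 and eIF1A open the small ribosomal subunit for scanning, eIF2 delivers the initiator transfer RNA in a GTP-bound complex, and eIF2B recharges eIF2 with GTP. The many-subunit factor eIF3 joins the small subunit to the cap complex, in which eIF4E binds the cap, eIF4G is the scaffold and eIF4A unwinds the leader. The factors eIF5 and eIF5B then act on GTP hydrolysis and subunit joining, and eIF6 keeps the large subunit from joining early. In growing tissues the pathway is a target of TOR signalling, which frees eIF4E from its inhibitor, the product of Thor.

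Library totals ran from 696952 to 3846682 counts, and the smallest library was the second wild-type one. Between replicates, log2 CPM (counts scaled to a common library size, on a log2 scale) over all 7278 tested genes correlated at Pearson r = 0.867 in wtsP2 and 0.564 in wild type. Over the 34 tested initiation factor genes, r was 0.949 and 0.783, given as a description because these genes share libraries. The wts gene itself had 48 and 24 counts in wtsP2 and 46 and 0 in wild type, a log2 fold change of -0.15 ± 2.36 (SE), which does not check the labels. Of 12 wing disc marker genes, 9 were found in the files, and all 9 had counts in both groups. In the second wild-type library, however, Dll and pnr had 0 counts and dpp had 1. The first wild-type library held 78, 64 and 293 counts for them. The 6 fat body marker genes summed to 853 and 1238 CPM in wtsP2 against 18601 and 17136 CPM in wild type, and all 6 were lower in both wtsP2 libraries. Of 6 haemocyte markers, 5 were in the files and summed to 157 and 245 CPM in wtsP2 and to 465 and 634 CPM in wild type. Among them, PPO2 and srp were lower in both wtsP2 libraries, and Hml, Pxn and NimC1 overlapped between the groups. The 6 salivary gland markers summed to 5.2 and 1.4 CPM in wtsP2, where Sgs5, Sgs7 and Sgs8 were at 0, and to 368 and 270.2 CPM in wild type. Of 6 muscle and myoblast markers, 5 were in the files and went both ways. In both wtsP2 libraries twi, Him and stumps were higher, with twi at 80 and 79 counts against 0 and 0, and htl and Mef2 were lower. The 3 tracheal markers present of 5 summed to 1235 and 1052 CPM in wtsP2 and to 239 and 184 CPM in wild type. Most of the wtsP2 sum came from verm, at 483 and 497 CPM, and serp, at 645 and 440 CPM. The third, trh, had 107 and 115 CPM in wtsP2 and 68.2 and 13.1 CPM in wild type. The part of these other tissues in the values below was not tested, nor was how specific the genes are to trachea.

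As a group, the initiation factor genes took similar amounts of each library. Together they had 13704 and 13026 CPM in the wtsP2 libraries and 17323 and 12224 CPM in the wild-type libraries. The first wild-type library was the highest of the 4 and the second the lowest, so that the groups overlapped. Of the 42 genes, 34 passed the filter on low counts and 8 did not. In edgeR's quasi-likelihood test with Benjamini-Hochberg adjustment, 0 of the 34 were called higher and 0 lower in wtsP2 at an adjusted p under 0.05, against a background of 0% of all tested genes in either direction. The smallest adjusted p of an initiation factor gene was 0.368. DESeq2 called 0 of them (background 1.45% higher and 1.26% lower), and limma-voom also called 0 (background 1.69% and 0.371%). At an unadjusted p under 0.05, edgeR gave 2 higher, eIF3l and eIF2Balpha, against a background of 9.91%, and 1 lower, eIF4E1, against 2.65%. Leaving out a library changed these counts. Without the first wild-type library, edgeR called 4 of them, 3 higher (background 31.5%) and 1 lower (8.53%). Without the second it called 7, 2 higher (background 12.3%) and 5 lower (5.67%). Without the first wtsP2 library it called 0 (background 0.128% higher and 0.179% lower), and without the second also 0 (0.0386% and 0.193%).

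**Figure D1:**
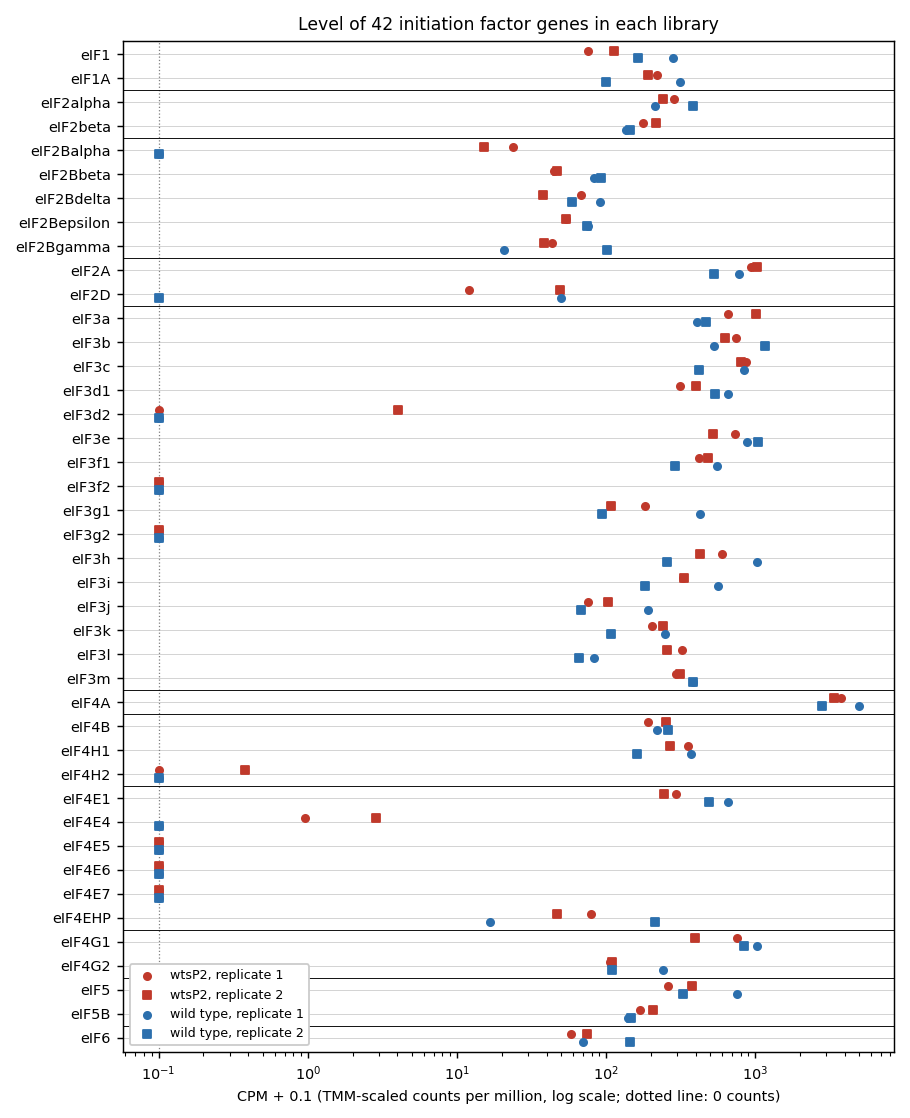
Level of each of the 42 initiation factor genes in each library, as TMM-scaled CPM plus 0.1 on a log axis, with wtsP2 in red above wild type in blue and genes grouped by factor. The gene eIF4A lies at or above 2807 CPM in every library, eIF3l stands apart between the groups, and the paralogs eIF3f2, eIF3g2, eIF4E5, eIF4E6 and eIF4E7 lie at 0 counts in all 4.

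The centre of the group lay below that of all genes. The median log2 fold change of the 34 tested genes was -0.31, against 0.24 for all 7278 tested genes. The gene eIF2Balpha had no wild-type counts, and setting it to its bound cannot move this median, since its fitted value and its bound both lie above it. Of the 34, 11 were positive and 23 negative. Both wtsP2 libraries lay below both wild-type libraries for 8 of the 34 (23.5%), against a background of 15.1%, and above them for 6 (17.6%), against 32.3%. The initiation factor genes are well expressed, and 25 of the 34 were in the highest of 5 classes of level, where the median of all genes was 0.15. In the lowest class, which held 1 of them, it was 1.22.

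Much of the distance from all genes was shared by other genes of like length and level. Between 1054 and 3927 bases and between 5.94 and 9.51 mean log2 CPM, the ranges that hold the middle of the 34 genes from the 10th to the 90th percentile in each measure, there were 1376 other tested genes. Their median log2 fold change was -0.08, and that of the 19 initiation factor genes within both ranges was -0.32. Within these ranges the match was loose. Median length was 2400.5 bases in the 1376 genes and 1631 in the 19, and median log2 CPM was 6.81 and 8.10. In a closer match, each gene was set against genes within 25% of its length and 0.5 of its level. Of 27 initiation factor genes with at least 20 such genes, 15 lay below their median and 12 above, with a median difference of -0.19. Among these 1376 genes both wtsP2 libraries lay below both wild-type libraries for 25.2% and above them for 20.4%, shares close to those of the initiation factor genes. The difference of -0.23 between the medians of the 19 and the 1376 genes also depended on 1 library. Without the first wild-type library, the median of the 19 genes was 0.39 and that of the 1376 other genes was 0.00. Without the second wild-type library these medians were -0.57 and -0.07. The difference for these 19 genes was thus positive, at 0.39, only without the first wild-type library. In every other setting it was negative, from -0.50 without the second wild-type library to -0.09 in limma-voom.

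**Figure D2:**
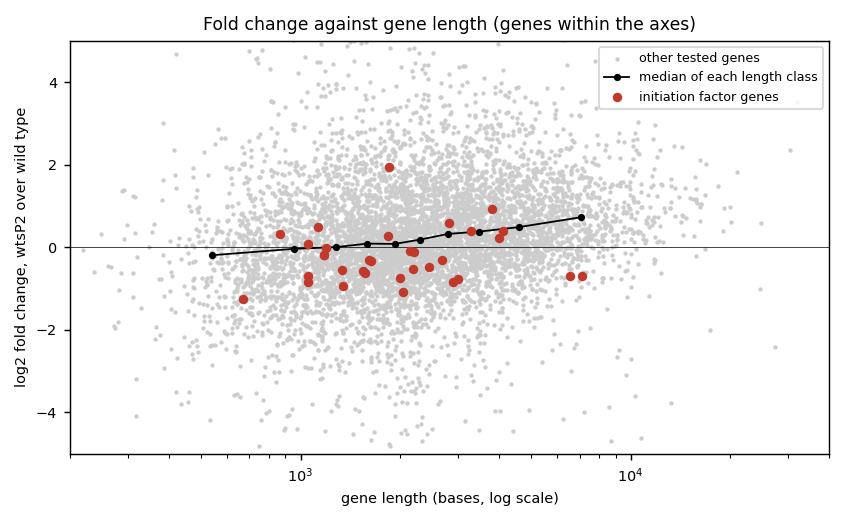
Log2 fold change (wtsP2 over wild type) against gene length in bases on a log axis, for the 33 tested initiation factor genes with counts in both groups (red), other tested genes within the axes (grey) and the median of each of 10 length classes of all tested genes (black). Class medians run from -0.19 in the shortest class to 0.72 in the longest, and the initiation factor genes lie on both sides of the line.

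Within the group, values spread more between the wild-type libraries than between the wtsP2 libraries. The median absolute difference between replicates was 0.31 in wtsP2 and 0.83 in wild type, on the scale of log2(CPM + 1). In wtsP2 1 of the 34 genes differed by over 2-fold between replicates, and in wild type 14 did. Genes of like length and level had median differences of 0.34 in wtsP2 and 0.73 in wild type. The fold changes below therefore carry wide errors wherever the wild-type pair disagreed.

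**Figure D3:**
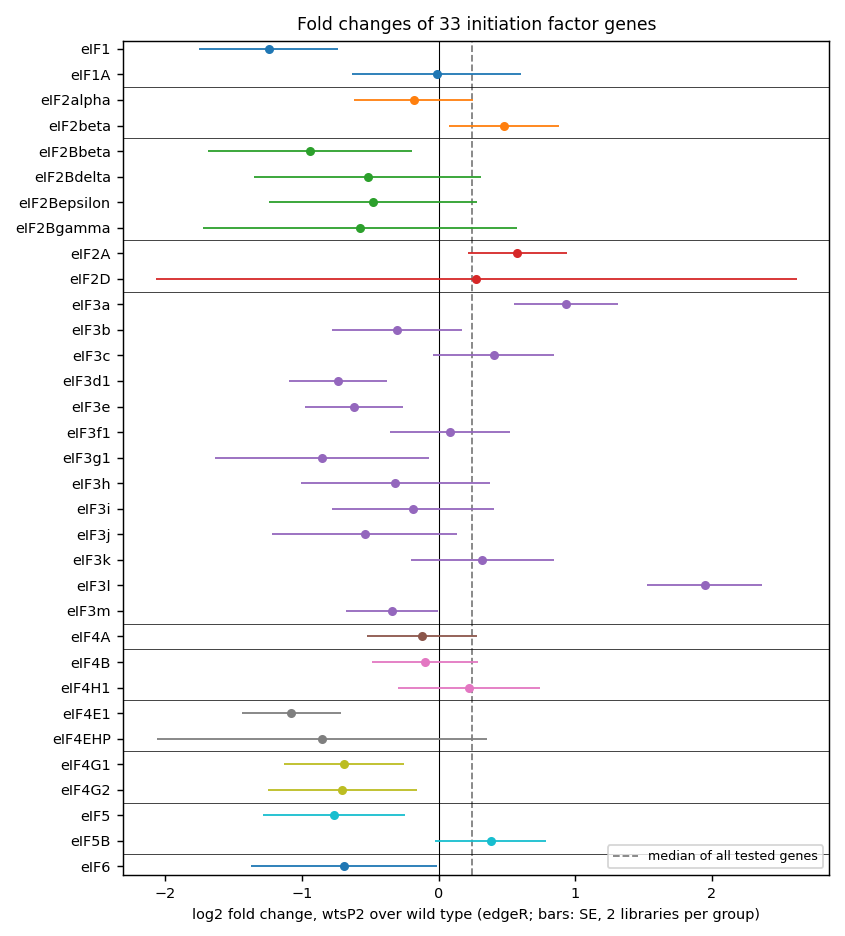
Log2 fold change with its standard error for the 33 tested initiation factor genes with counts in both groups, ordered by factor, with the median of all tested genes as a dashed line. The gene eIF3l lies at 1.95 ± 0.42 and eIF1 at -1.24 ± 0.51, and most error bars cross 0.

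Among the scanning factors, eIF1 had its lower values in wtsP2 and eIF1A overlapped between the groups. The gene eIF1 (FBgn0035423, chromosome 3L, 3223350 to 3224650, plus strand; positions are as deposited, on build BDGP5) encodes the guardian of start codon choice. It had 75.7 and 113 CPM in wtsP2 and 283 and 163 CPM in wild type, from 264, 404, 581 and 124 counts in that order. Both wtsP2 libraries were thus the lower ones, at a log2 fold change of -1.24 ± 0.51 (SE, n = 2 per group; edgeR adjusted p = 0.412). It is the shortest of the tested initiation factor genes at 669 bases, in the length class with the lowest median of all genes, -0.19. Without the second wild-type library, where the wtsP2 pair alone gives the spread, eIF1 passed at -1.55 (edgeR adjusted p = 0.00409). The gene eIF1A, for the partner of eIF1 on the small subunit, had 220.5 and 189.6 CPM in wtsP2 and 313 and 99.7 CPM in wild type. The wtsP2 values lay between the wild-type ones, and its log2 fold change was -0.01 ± 0.62.

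For the ternary complex, the genes of both measured eIF2 subunits had small log2 fold changes with errors of similar size. The regulatory subunit gene eIF2alpha, whose product is phosphorylated under stress, had 284 and 242 CPM in wtsP2 and 214 and 383 CPM in wild type. These values overlapped, with a log2 fold change of -0.18 ± 0.44. In the reference annotation the gene shares 192 bases of exon with rngo on the opposite strand, but no other feature of the count files overlapped its span. The gene eIF2beta had 176 and 216 CPM in wtsP2 and 136 and 144 CPM in wild type, higher in both wtsP2 libraries but by only 0.48 ± 0.40 on the log2 scale (edgeR adjusted p = 0.851). For the 2 factors that can bring transfer RNA to the ribosome by other routes, eIF2A and eIF2D, the picture differed in precision. The gene eIF2A had 930.4 and 1020.5 CPM in wtsP2 and 775 and 533 CPM in wild type, a log2 fold change of 0.58 ± 0.36 (edgeR adjusted p = 0.709). The gene eIF2D had 42 and 175 counts in wtsP2 and 102 and 0 in wild type. The other 3 libraries predict 26.6 counts where the second wild-type library had 0, and the log2 fold change was 0.28 ± 2.35.

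The exchange factor eIF2B is built from 5 subunits, and 4 of its 5 genes had negative log2 fold changes while that of the alpha subunit gene was positive. The gene eIF2Bbeta had 44.4 and 46.8 CPM in wtsP2 against 82.3 and 93.1 CPM in wild type, at -0.94 ± 0.75 (edgeR adjusted p = 0.824). For eIF2Bepsilon, which encodes the catalytic subunit, the values were 53.9 and 54.1 CPM in wtsP2 and 76.0 and 74.8 CPM in wild type, at -0.48 ± 0.76. In both genes the wtsP2 libraries lay below the wild-type ones, and the replicates of each group were close. The genes eIF2Bdelta and eIF2Bgamma overlapped between the groups, at -0.52 ± 0.83 and -0.57 ± 1.15.

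The gene eIF2Balpha (FBgn0039726, chromosome 3R, 25760304 to 25761598, minus strand), for a regulatory subunit, had 82 and 54 counts in wtsP2 and 0 and 0 in wild type. From the other 3 libraries, 35.6 counts would be expected in the first wild-type library and 11.4 in the second. Of its 6 exons, 3 and 2 held over 10 reads in the wtsP2 libraries and 0 in both wild-type libraries. Against a floor of 3 counts over the wild-type group it was at least 18.1-fold higher in wtsP2 (edgeR adjusted p = 0.368), where the floor covers counting error only. Among 138 other genes of length and level like those of eIF2Balpha, the median log2 fold change was also high, at 2.12. A second counting of the same libraries, described below, found this gene in 1 wild-type library and gave a much smaller ratio. The size of the difference for the alpha subunit gene therefore depends on which counting is read.

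The 16 eIF3 genes include 13 that were tested, 1 for each of 13 subunits, and 3 paralogs, eIF3d2, eIF3f2 and eIF3g2, that were not. The subunit genes did not move as a block: 5 were positive and 8 negative, with a median log2 fold change of -0.31, against 0.24 for all tested genes. The gene eIF3l (FBgn0036258, chromosome 3L, 12136542 to 12139215, minus strand) stood apart. It encodes a subunit of the PCI domain family that is absent from budding yeast. It had 1119 and 914 counts in wtsP2 and 171 and 50 in wild type, or 321 and 255 CPM against 83.3 and 65.6 CPM. Both wtsP2 libraries were well above both wild-type libraries, and each pair was close. The log2 fold change was 1.95 ± 0.42, a 3.85-fold higher level in wtsP2 (edgeR unadjusted p = 0.00486, adjusted p = 0.368). It missed the threshold in DESeq2 (adjusted p = 0.0763) and limma-voom (adjusted p = 0.177) and passed in edgeR without either wild-type library (adjusted p = 0.000892 and 0.00164), where the remaining wild-type sample has no spread of its own and takes that of the wtsP2 pair. Its log2 fold change stayed between 1.81 and 2.14 over the 4 fits that left out a library. Of the 34 genes it had the largest fold change measured in both groups, and 167 other genes of like length and level had a median of -0.15.

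Per length, eIF3l held different places among the eIF3 subunit genes in the groups. It was the lowest of the 13 in both wild-type libraries, at 44.97 and 35.42 CPM per kb, which is 15.8% and 22.9% of the median subunit gene there. In the wtsP2 libraries it had 173 and 138 CPM per kb, 74.3% and 56.6% of the median, and ranked the third from the lowest. All 4 of its exons held over 10 reads in both wtsP2 libraries, and 4 and 1 did in the wild-type libraries, of which the second was the shallowest. The range among the 13 genes was accordingly wider in wild type: the highest was 8.23 and 5.90 times the lowest in the wtsP2 libraries and 14.1 and 18.8 times in the wild-type libraries.

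**Figure D4:**
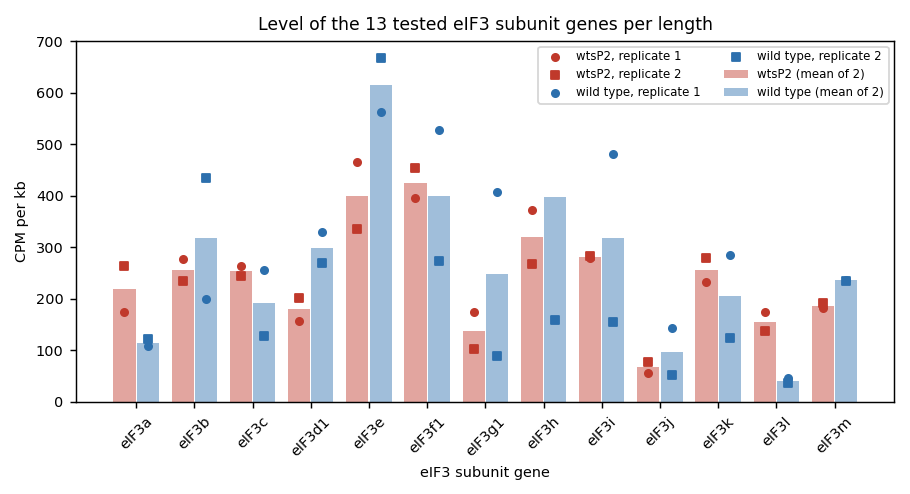
Level of the 13 tested eIF3 subunit genes in CPM per kb of gene length, with bars for the mean of 2 libraries and points for each library, wtsP2 (red) left of wild type (blue). For eIF3l both red points lie far above the blue ones, for eIF3e and eIF3d1 they lie below, and for eIF3g1, eIF3h, eIF3i and eIF3j the 2 wild-type libraries lie far apart on either side of wtsP2.

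The scaffold subunit gene eIF3a was the other eIF3 gene higher in both wtsP2 libraries. It had 660.0 and 1005.2 CPM in wtsP2 and 408 and 466 CPM in wild type, a log2 fold change of 0.93 ± 0.38 (edgeR adjusted p = 0.413). At 3804 bases it is among the longer genes, and 31 genes of like length and level had a median of 0.37. The gene eIF3e, for a subunit at the edge of the complex, had 728 and 524 CPM in wtsP2 and 880 and 1044 CPM in wild type, at -0.62 ± 0.36 (edgeR adjusted p = 0.655). The gene eIF3d1, for the subunit known in mammals to bind the cap, had 315 and 404 CPM in wtsP2 and 658 and 539 CPM in wild type, at -0.74 ± 0.36 (edgeR adjusted p = 0.537). The gene eIF3m had 296 and 311 CPM in wtsP2 and 385 and 383 CPM in wild type, at -0.34 ± 0.34. In these last 3 genes both wtsP2 libraries lay below both wild-type libraries, and none passed the test. They are 23.1% of the 13 tested eIF3 genes, against 15.1% of all tested genes and 25.2% of the 1376 genes of like length and level. The 2 genes above, eIF3l and eIF3a, are 15.4%, against 32.3% and 20.4%.

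The other 8 tested eIF3 genes overlapped between the groups. The gene eIF3h had 599 and 430 CPM in wtsP2, inside the 1022 and 255 CPM of wild type, and eIF3i had 327 and 332 CPM in wtsP2, inside 566 and 182 CPM. In the reference annotation eIF3h shares 252 bases of exon with senju on the opposite strand. The gene eIF3g1, for an RNA-binding subunit, had 184 and 107 CPM in wtsP2 and 429 and 94.5 CPM in wild type, at -0.85 ± 0.78. It passed as lower without the second wild-type library (-1.52, edgeR adjusted p = 0.00363) and turned positive, at 0.63, without the first. The genes eIF3b and eIF3c, for core subunits, lay at -0.31 ± 0.48 and 0.40 ± 0.44. Grouped by structure, after their values had been seen, the 8 genes for subunits with a PCI or MPN domain (eIF3a, eIF3c, eIF3e, eIF3f1, eIF3h, eIF3k, eIF3l and eIF3m) had a median of 0.20, with 5 positive and 3 negative. The 5 genes for the others (eIF3b, eIF3d1, eIF3g1, eIF3i and eIF3j) were all negative, with a median of -0.54. Without the first wild-type library, however, eIF3g1, eIF3i and eIF3j were positive.

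In the cap complex, the helicase gene eIF4A had by far the highest level. Per length it had 1711 and 1542 CPM per kb in wtsP2 and 2267 and 1275 CPM per kb in wild type, and it made up 25.4% and 23.8% of the summed CPM per kb of all initiation factor genes in wtsP2 and 25.3% and 21.0% in wild type. Its lowest library stood above the highest library of the next gene in the order, eIF3e, at 667 CPM per kb. Further down the order, from eIF3e to eIF3f1, eIF3h, eIF3i, eIF2A and eIF3b, neighbours overlapped over the 4 libraries. The log2 fold change of eIF4A was -0.12 ± 0.40. The genes for its stimulating factors lay near 0 as well: eIF4B had 191 and 254 CPM in wtsP2 and 218 and 258 CPM in wild type (-0.10 ± 0.39), and eIF4H1 had 357 and 269 CPM in wtsP2 and 373 and 161 CPM in wild type (0.22 ± 0.52).

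The cap-binding protein gene eIF4E1 (FBgn0015218, chromosome 3L, 9392716 to 9395565, minus strand) was the lowest in wtsP2 relative to its error. It had 1030 and 884 counts in wtsP2 and 1343 and 372 in wild type, or 295 and 246 CPM against 654 and 488 CPM. Both wtsP2 libraries were well below both wild-type libraries, at a log2 fold change of -1.08 ± 0.37, a 2.11-fold lower level (edgeR unadjusted p = 0.0297, adjusted p = 0.368). Over the 4 fits that left out a library it ran from -1.23 to -0.84, and it passed only without the second wild-type library (edgeR adjusted p = 0.0166). Its share of the summed CPM per kb was 2.14% and 1.86% in wtsP2 and 3.56% and 3.93% in wild type. In 50 other genes of like length and level the median was -0.41. The gene eIF4EHP, for a cap-binding homologue that represses translation, had 79.7 and 46.6 CPM in wtsP2 and 16.6 and 213 CPM in wild type. The wild-type libraries lay on either side of wtsP2, at a log2 fold change of -0.85 ± 1.21, and the gene shares 447 bases of exon with Syx1A in the reference annotation.

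The scaffold gene eIF4G1 lies on chromosome 4 and had 759 and 397 CPM in wtsP2 and 1029 and 838 CPM in wild type. Both wtsP2 libraries were below both wild-type ones, at -0.69 ± 0.44 (edgeR adjusted p = 0.717). Its paralog eIF4G2, known for a role in the male germ line, had 107 and 110 CPM in wtsP2 and 243 and 109 CPM in wild type. The second wild-type library was thus level with wtsP2, and the log2 fold change was -0.70 ± 0.55. Both scaffold genes are long, at 6566 and 7114 bases, in the length class whose median for all genes was 0.72. Genes of like length and level had medians of 0.63 for eIF4G1 and 0.72 for eIF4G2. An exon of eIF4G2 shares 779 bases with CG33111 in the reference annotation, so its counts are uncertain.

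For the late steps, the GTPase-activating factor gene eIF5 had 261 and 377 CPM in wtsP2 and 752 and 328 CPM in wild type, at -0.76 ± 0.52. The second wild-type library lay between the wtsP2 libraries. In the reference annotation eIF5 shares 2588 bases of exon with CG46312, but no other feature of the count files overlapped its span. What part of its counts came from CG46312 was not tested. The joining factor gene eIF5B had 168 and 206 CPM in wtsP2 and 140.3 and 147 CPM in wild type, above in both wtsP2 libraries but by 0.38 ± 0.40 only. The gene eIF6 had 57.9 and 75.0 CPM in wtsP2 and 70.1 and 146 CPM in wild type, at -0.69 ± 0.68, with overlapping groups. In the count files the feature of ytr overlaps its span, though the reference annotation gives them 0 shared exon bases.

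Some factors have paralogs, and in the eIF3d, eIF3f, eIF3g, eIF4H and numbered eIF4E sets 1 copy carried nearly all counts. The genes eIF3f2, eIF3g2, eIF4E5, eIF4E6 and eIF4E7 had 0 counts in all 4 libraries. Against the floor of 3 counts per library these zeros allow up to 0.852 and 0.780 CPM in wtsP2 and 1.42 and 4.30 CPM in wild type. The gene eIF3d2 had 0 and 14 counts in wtsP2, eIF4E4 had 3 and 10, and eIF4H2 had 0 and 1, and all 3 had none in wild type. The deeper wtsP2 libraries could show such levels and the shallow second wild-type library could not, so that no difference is read from them. The main copies eIF3d1, eIF3f1 and eIF4E1 had 315 and 404, 417 and 480, and 295 and 246 CPM in the wtsP2 libraries. Of 10 male germ line markers, bam, aly, can, sa and dj were at 0 in every library, and the 10 summed to 24.4 and 18.4 CPM in wtsP2 and to 34.6 and 30.2 CPM in wild type.

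The authors' deposited table of group means rests on a separate read counting, and it bears on several of these genes. Its means are counts divided by size factors, and all 9875 nonzero wtsP2 means and 8286 nonzero wild-type means split into whole counts of 2 libraries within a relative tolerance of 1e-09. The split gives the 2 libraries of each group without their numbers, and recovered counts are given in its own order. In wtsP2 that order ran opposite to the replicate numbers: eIF3d2 had 14 and 0 recovered counts and eIF4E4 had 10 and 3, against 0 and 14 and 3 and 10. In wild type the larger library came first, at totals of 1722653 and 634240 recovered counts, as in the count files. For eIF2Balpha it gave 80 and 82 counts in wtsP2 and 23 and 0 in wild type, where the count files had 0 and 0. The ratio of the means in the authors' deposited table was 3.68, below the bound of 18.1 from the count files. In edgeR on the recovered counts its log2 fold change was 1.92 ± 2.26 (adjusted p = 0.908). For eIF3l the split gave 926 and 1125 counts in wtsP2 and 171 and 77 in wild type, at 1.63 ± 0.41 (edgeR adjusted p = 0.356). For eIF4E1 it gave 964 and 1058 counts in wtsP2 and 1410 and 402 in wild type, at -1.12 ± 0.35 (edgeR adjusted p = 0.356). The genes eIF4G2 and eIF6 are listed at 0 in both group means of the authors' deposited table, although the count files held 83 to 498 and 111 to 269 counts for them. For eIF4EHP the recovered counts were 859 and 941 in wtsP2 and 184 and 343 in wild type. By replicate number, the count files held 278 and 167 in wtsP2 and 34 and 162 in wild type. On recovered counts its log2 fold change was -0.09 ± 0.72. Of 31 initiation factor genes tested on recovered counts, 12 were positive and 19 negative, and 0 were called (background 0%). At an unadjusted p under 0.05, eIF3l and eIF3a were higher, against a background of 8.88%, and eIF1 and eIF4E1 were lower, against 3.31%.

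Genes that act beside the initiation factors were described by lists. Of 17 listed partners and regulators of initiation, 16 were tested, with a median log2 fold change of 0.17 against 0.24 for all tested genes. None was called by edgeR, and 2 of the 16 had an unadjusted p under 0.05, both higher in wtsP2, against a background of 9.91% of all tested genes. These were Lk6, which encodes the kinase that phosphorylates eIF4E, and tyf, for a translation activator of the clock. The gene Lk6 had 748 and 713 CPM in wtsP2 and 306 and 331 CPM in wild type, at 1.20 ± 0.33 (edgeR adjusted p = 0.368), and both its replicate pairs were close. The gene tyf had 352 and 357 CPM in wtsP2 and 163 and 151 CPM in wild type, at 1.18 ± 0.36 (edgeR adjusted p = 0.368). Both are long, at 4946 and 10182 bases, in classes whose medians were 0.48 and 0.72. The most abundant of the list were crc, the fly homologue of the stress factor ATF4, at -0.70 ± 0.38, and larp, for an RNA-binding regulator of translation, at 0.21 ± 0.50. The inhibitor gene Thor, named after its value was seen, had 18.6 and 28.2 CPM in wtsP2 and 27.3 and 89.2 CPM in wild type, at -1.31 ± 1.26.

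Downstream of initiation, the 6 tested elongation genes of 8 listed had a median of 0.09, and 5 of the 6 lay below the median of all genes. The list held eEF1gamma at 0.55 ± 0.35 and the abundant eEF2 at 0.07 ± 0.33. The 6 termination and rescue genes had a median of 0.42, and 5 of the 6 lay above that of all genes, with eRF1 at 0.82 ± 0.53, pix at 0.41 ± 0.43 and the ribosomal scaffold gene Rack1 at 0.43 ± 0.44. In the TOR list 12 of 15 genes were tested, with a median of 0.76, 9 positive and 3 negative, where 58.0% of all tested genes were positive. These 12 genes had a median length of 4076 bases, in the length class whose median for all genes was 0.48. In the TOR list, rictor lay at 2.41 ± 0.97, with 199 and 248 CPM in wtsP2 and 72.6 and 9.18 CPM in wild type, and melt at 1.10 ± 0.54. The abundant RpS6 lay at -0.41 ± 0.44 and Akt at -0.30 ± 0.61. In these 3 lists edgeR called 0 genes, and 0 had an unadjusted p under 0.05. Of the initiation factor genes, 25 of 34 lay below the median of all genes, and the difference from these lists was not tested.

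**Figure D5:**
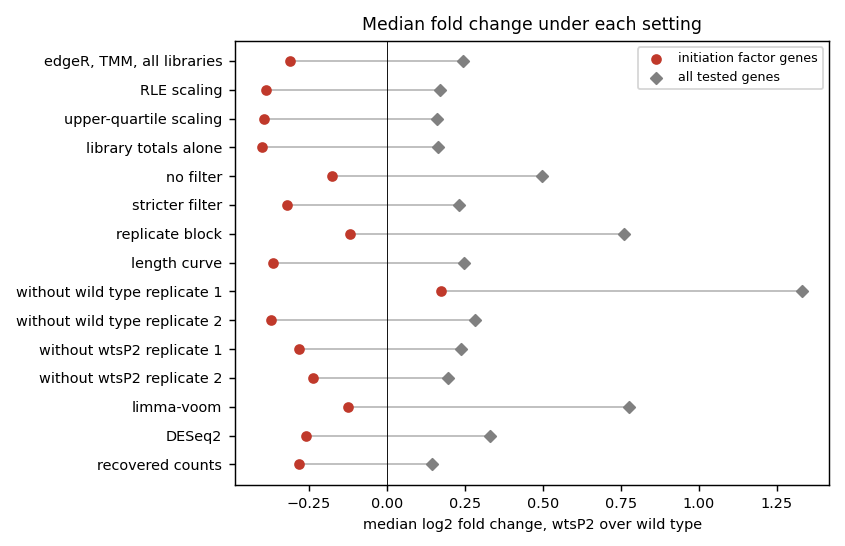
Median log2 fold change (wtsP2 over wild type) of the tested initiation factor genes (red) and of all tested genes (grey) under each scaling, filter, tool, left-out library and the recovered counts. The red median lies below the grey one in all 15 settings shown, and it is above 0, at 0.17, only without the first wild-type library, where the grey median is 1.33.

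The distance of the group from all genes thus kept its sign under every setting plotted there, from -1.16 without the first wild-type library to -0.43 on recovered counts and without the second wtsP2 library. Set against genes of like length and level, the difference for the 19 genes within both ranges turned positive only without the first wild-type library, at 0.39. Among single genes, eIF3l, eIF3a, eIF3c, eIF2A, eIF2beta and eIF5B were positive in all 15 settings. The genes eIF1, eIF4E1, eIF3d1, eIF3e, eIF3m, eIF4G1, eIF5, eIF2Bbeta, eIF2Bdelta and eIF2Bepsilon were negative in all 15. Some of these values lay near 0, with eIF3c at 0.03 without the second wild-type library and eIF5 at -0.04 without the first. All settings draw on the same 4 libraries, so a shared sign is not repeated evidence.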

How the data were processed

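Read counts per gene feature were deposited by the authors, 1 file per library, with feature lengths and exon counts. Per the labels' protocols, library construction used SOLiD Total RNA-Seq reagents. HTSeq, DESeq, BDGP5 and dm3 are named in the submitters' processing notes. For the aligner, the strand setting and shared reads, details were not given in the sources used here, so reads from a gene and an overlapping antisense gene cannot be told apart. The authors' group means, a signal made of counts divided by DESeq size factors per the file headers, were split into whole counts with a relative tolerance of 1e-09. Of these, 58 wtsP2 and 5 wild-type means, that of eIF4A in wtsP2 included, split in several ways and were left out.

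Symbols matched 14347 of 15222 features by identifier. The main test of the deposited counts was that of edgeR 4.0.16 (R 4.3.3; filterByExpr, 7278 genes kept and 7944 not tested; TMM; robust quasi-likelihood F test; Benjamini-Hochberg over all tested genes; threshold 0.05). Each SE was taken as the absolute log2 fold change divided by the root of F. CPM are TMM-scaled, and CPM per kb divide by the feature length. Alternatives were other scalings and filters, DESeq2 1.42.0, limma-voom (limma 3.58.1), the replicate number as a block, a length curve and each library left out. Recovered counts were added after seeing the data. The procedure was also run on simulated counts with equal dispersion in both groups. In the real counts, the median difference between replicates over all tested genes was 1.37 in wild type and 0.49 in wtsP2, in log2(CPM + 1). That run therefore gives no error rate for these data. Members, lists and alternatives were chosen with earlier results of these data known.

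Any initiation factor gene could be named. Values in each library are given for the highest gene of each factor, genes with an unadjusted p under 0.05, paralog sets, the largest changes and genes at 0 where 20 counts were predicted. Of other lists, the 2 genes with the smallest p and the 2 with the highest level were named, besides Thor and some tissue marker genes. No sequence is shown, and promoter motifs were not analysed here. Genes of like length and level of 1 gene lie within 25% of its length and 0.5 of its mean log2 CPM. Depth ran from 696952 to 3846682 counts, and a floor of 3 counts covers counting error only.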

Additional observations from a re-analysis of the deposited data

How the results depend on the processing

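The count of called genes depended on the tool and the libraries, while at an adjusted p under 0.05 initiation factor genes were called only in the fits that left out a wild-type library. Over all genes, edgeR called 0 with every scaling, the stricter filter, the length curve and the recovered counts, 37 with no filter, 107 with the replicate number as a block, and 914 had an unadjusted p under 0.05. DESeq2 called 185 and limma-voom 150, and leaving out a library gave 18 to 3195. Of the initiation factor genes, 3 had an unadjusted p under 0.05, and leaving out a library gave 0 to 7 calls. Their median log2 fold change ran from -0.37 to 0.17 over the fits that left out a library, and from -0.40 to -0.12 under the other settings. The replicate block called 0 initiation factor genes. Deviations of same-numbered libraries correlated at 0.008. With 2 libraries per group this value cannot show whether the numbers pair libraries, and the labels do not say.

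Without a wild-type library only the wtsP2 pair gives a spread. The 4 initiation factor calls without the first library were eIF3l, eIF2Balpha and eIF2D higher and eIF4EHP lower. The 7 without the second were eIF3l and eIF2Balpha higher and eIF1, eIF4E1, eIF3g1, eIF4G2 and eIF5 lower.

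Signs changed for genes near 0 or with discordant wild-type libraries, and the cause was not tested. The gene eIF1A was at 0.20 under the replicate block, 0.041 with the length curve and 0.14 on recovered counts. Under the block eIF4EHP was at 0.020 and eIF3i at 0.031, and in limma-voom eIF4EHP was at 1.34 and eIF2Bgamma at 0.59. Over the fits that left out a library, the log2 fold change ran from -0.57 to 1.05 for eIF1A, from -0.27 to 0.64 for eIF3f1, from -1.75 to 1.97 for eIF4EHP, from -1.52 to 0.63 for eIF3g1, from -0.54 to 0.33 for eIF2alpha, from -0.21 to 0.96 for eIF4H1, from -0.31 to 0.12 for eIF4B, from -1.05 to 0.39 for eIF3j, from -1.31 to 1.03 for eIF2Bgamma, from -0.76 to 0.40 for eIF3b, from -0.11 to 1.05 for eIF3k, from -0.74 to 0.86 for eIF3i, from -0.95 to 1.02 for eIF3h and from -0.44 to 0.36 for eIF4A. For eIF2D it ran from -1.04 to 1.01 over 3 of these fits. Without the first wild-type library its only wild-type count is 0, and no fold change is given there, although the gene was called. The other scalings turned no sign, and they moved the median of all genes to between 0.16 and 0.17, against 0.24 with TMM. Each group had 2 libraries, and 0 counts stood at moderate predicted levels in wild type for eIF2Balpha and eIF2D.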
